A study of Mus musculus with 8 samples.

Results

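Melanocytes were set against the other cells of the same skin in 2 mice given UVB. The comparison used 4 of the series' 8 libraries, made from EGFP+ and tdTomato+ cells sorted from each of these mice, and was chosen by the labels of the libraries and by no measured value. The table holds 24421 genes, and 18070 of them had a mean of at least 1 normalized read in at least 1 group and were tested. All 4 mice of the series were of the C57BL/6J strain and had the genotype ROSA mTmG +; Cre+, in which Tyr:CreERT2 is a Cre recombinase under tyrosinase regulatory sequence that acts when tamoxifen is present. ROSA mTmG makes a red membrane protein in every cell and switches to a green one once Cre has acted, so the green, EGFP+ cells are those in which the tyrosinase-driven Cre worked, and a melanocyte in which it did not work stays with the red, tdTomato+ cells. Every mouse had daily tamoxifen for 10 days from postnatal day 21, was shaved and depilated at day 50, and gave back skin at day 54. Mice 3 and 4 had UVB at 150 mJ/cm2 for 3 days and gave UV EGFP replicates 1 and 2 and UV tdTomato replicates 1 and 2. Mice 1 and 2 had normal light in its place and gave the 4 libraries without UV, which shared the fit and are given beside the results as the background. The tdTomato+ group is a mixture of all other sorted skin cells, and in such a mixture fewer cells of a type and less RNA per cell cannot be told apart.

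Melanocytes are pigment cells of neural crest origin that sit in the hair follicle and, in small numbers, in the epidermis of mice. They make melanin inside melanosomes with the enzymes tyrosinase, TYRP1 and DCT, under the transcription factor MITF, and hand the melanosomes to keratinocytes. Keratinocytes in turn secrete factors such as stem cell factor, endothelins and melanocortins that act on receptors of the melanocyte, and UVB is known to raise several of these signals, to damage DNA and to set off wound and inflammatory programs in the epidermis.

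The sequences upstream of 6 genes are shown because the genes lie at opposite ends of the comparison and hold the short motifs counted in it. TCATGTG, or CACATGA on the other strand, is the core of the M-box that MITF binds in pigment gene promoters, and TGAGTCA, or TGACTCA, is the site of AP-1, a dimer of FOS and JUN proteins. Each stretch is the 250 bases before a RefSeq start in GRCm38.p6, read in the gene's direction, with matches on either strand in capitals. Dct lies at chr14:118052247-118052496 on the minus strand, Tyr at chr7:87493513-87493762 (minus), Tyrp1 at chr4:80833963-80834212 (plus), Trpm1 at chr7:64153585-64153834 (plus), Plaur at chr7:24462233-24462482 (plus) and Sprr1a at chr3:92485882-92486131 (minus).
Dct: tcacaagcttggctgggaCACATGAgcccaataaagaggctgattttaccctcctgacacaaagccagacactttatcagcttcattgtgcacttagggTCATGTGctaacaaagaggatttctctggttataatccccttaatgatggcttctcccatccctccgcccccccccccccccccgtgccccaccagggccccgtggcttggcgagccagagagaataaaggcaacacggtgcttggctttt
Tyr: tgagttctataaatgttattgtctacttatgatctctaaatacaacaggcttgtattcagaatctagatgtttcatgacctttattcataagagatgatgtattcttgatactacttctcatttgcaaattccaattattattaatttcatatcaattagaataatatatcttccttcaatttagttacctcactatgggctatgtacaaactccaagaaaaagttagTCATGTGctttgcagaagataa
Tyrp1: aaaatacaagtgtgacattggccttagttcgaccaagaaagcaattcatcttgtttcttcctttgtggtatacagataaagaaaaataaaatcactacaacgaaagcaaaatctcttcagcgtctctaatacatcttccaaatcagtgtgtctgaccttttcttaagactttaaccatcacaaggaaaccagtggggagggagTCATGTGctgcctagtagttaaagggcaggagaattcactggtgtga
Trpm1: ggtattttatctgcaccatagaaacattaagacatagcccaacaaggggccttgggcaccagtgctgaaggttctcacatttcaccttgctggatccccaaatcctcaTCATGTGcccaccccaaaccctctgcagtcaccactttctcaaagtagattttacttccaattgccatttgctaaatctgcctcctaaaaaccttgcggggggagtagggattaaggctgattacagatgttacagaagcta
Plaur: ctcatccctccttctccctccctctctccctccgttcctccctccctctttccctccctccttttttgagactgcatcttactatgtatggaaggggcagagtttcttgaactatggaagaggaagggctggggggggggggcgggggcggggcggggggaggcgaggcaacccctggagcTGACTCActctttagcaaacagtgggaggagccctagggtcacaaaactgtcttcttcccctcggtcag
Sprr1a: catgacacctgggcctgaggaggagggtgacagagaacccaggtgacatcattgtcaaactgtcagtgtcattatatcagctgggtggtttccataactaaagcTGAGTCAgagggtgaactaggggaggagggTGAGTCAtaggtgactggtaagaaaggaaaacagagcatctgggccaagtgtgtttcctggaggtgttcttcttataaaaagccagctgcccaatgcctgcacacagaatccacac

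Dct, Tyr and Tyrp1 encode enzymes of melanin synthesis and Trpm1 a channel, and all 4 were higher in EGFP+ cells after UVB. Plaur and Sprr1a, which encode a receptor for urokinase and a cornified envelope protein, were lower. The M-box core began 232 and 151 bases before the RefSeq start of Dct, 22 before Tyr, 47 before Tyrp1 and 142 before Trpm1. GENCODE M21 places the start of Tyrp1 earlier, at chr4:80834123, so the match of Tyrp1 lies inside the gene in that annotation. RefSeq entries covered 21 of the 26 melanin and melanosome genes tested, and 8 of their 25 promoters held it (32.0%), against 364 of the 16832 promoters of all tested genes with an entry (2.16%). It was in 3.32% of the promoters of all genes higher in EGFP+ cells and 1.85% of those lower. Among all 32851 RefSeq promoters, of tested and untested genes, the share was 3.25%, near that of the higher genes. The AP-1 site began 69 bases before the start of Plaur and 146 and 116 before Sprr1a, and was in 4 of 12 promoters of wound keratinocyte genes (33.3%) and 5 of 27 of cytokine genes (18.5%), against 3.90% of the promoters of all tested genes, 5.68% of those of lower genes and 3.75% of those of higher genes. The wound genes with the AP-1 site were Plaur, Sprr1a, Sprr2d and Sprr2h, all but Plaur of the same gene family, so their matches need not be independent. The site was in 0 of 20 promoters of immediate early genes. CACGTG, a palindrome that MITF also binds, was in 5 of the 25 melanin and melanosome promoters (20%), in 4 of 20 promoters of immediate early genes, a list with 13 lower genes, and in 7.57% of those of all tested genes. Of 19 promoters of lineage regulators, 1 held CACGTG and 1 the M-box core. Neither longer motif contains it or the other. These matches are letters in a window and were not measured as binding. The gene lists were chosen with earlier results of these data known, so their shares describe the lists and were not tested.

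The libraries after UVB held 13288698 to 16711981 reads. UV EGFP replicate 2 stood apart with 11186 detected genes, against 14503 in UV EGFP replicate 1 and 15340 and 16090 in the tdTomato+ libraries, and with a correlation across genes of 0.942 with its partner, where the other 3 groups had 0.952 to 0.971. Both mice given UVB had Y-linked reads (at least 2257 a library) and at most 4 reads of Xist, while mouse 1, without UV, had 477 and 1103 reads of Xist, so sex was not even between the UV and no UV mice. The 5 pigment genes Tyr, Tyrp1, Dct, Pmel and Mlana took 4.09% and 4.19% of the reads of UV EGFP libraries. In UV tdTomato libraries they took 0.148% (mouse 3) and 0.285% (mouse 4), against 0.0348% and 0.0145% in the tdTomato+ cells of mice without UV. Over the 34 melanin and lineage genes called higher in EGFP+ cells after UVB, the tdTomato+ level was a median of 5.17% of the EGFP+ level in mouse 3 and 7.55% in mouse 4. The median was 1.52% and 1.02% in mice 1 and 2. The highest of these genes reached 45.2% and 45.1% in mice 3 and 4, and 67.4% and 93.4% in mice 1 and 2. The share of the 5 pigment genes among tdTomato+ reads was thus higher in the UV mice, and its part in the differences below was not tested. In the EGFP+ libraries the 7 keratins Krt5, Krt14, Krt17, Krt6a, Krt16, Krt1 and Krt10 took 0.0048% and 0.0049% of reads, against 1.85% and 1.58% in UV tdTomato libraries.

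EGFP+ and tdTomato+ cells differed in 3240 of 18070 genes after UVB (17.9%; limma, Benjamini-Hochberg adjusted p under 0.05), with 909 higher (5.03%) and 2331 lower (12.9%) in EGFP+ cells. These shares of higher and lower genes are the background for each list count below. The median log2 difference over all genes tested was -0.27. Quantile normalization moved that median by 0.27 and gave 1251 higher and 1639 lower, and rescaling without the 20 most abundant genes moved it by 0.20 and gave 1285 higher and 2011 lower, so the share of higher genes went from 28.1% to 43.3% and 39.0%. In 9492 genes (52.5%) the 2 libraries of one group lay on 1 side of the other 2. All 3240 called genes were among them, so a lack of overlap adds nothing to a call. Leaving out UV tdTomato replicate 1 left 958 calls, UV tdTomato replicate 2 left 1336, and UV EGFP replicate 2 left 2098. The 4 UV libraries alone gave 1074, and the same 4 with mouse as a block gave 0 (3935 at an unadjusted p under 0.05), so each call below, made with all 8 libraries, is absent from that smallest fit. All differences are on the scale of log2(normalized reads + 1), EGFP+ minus tdTomato+, with the standard error after the ± sign.

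**Figure D1:**
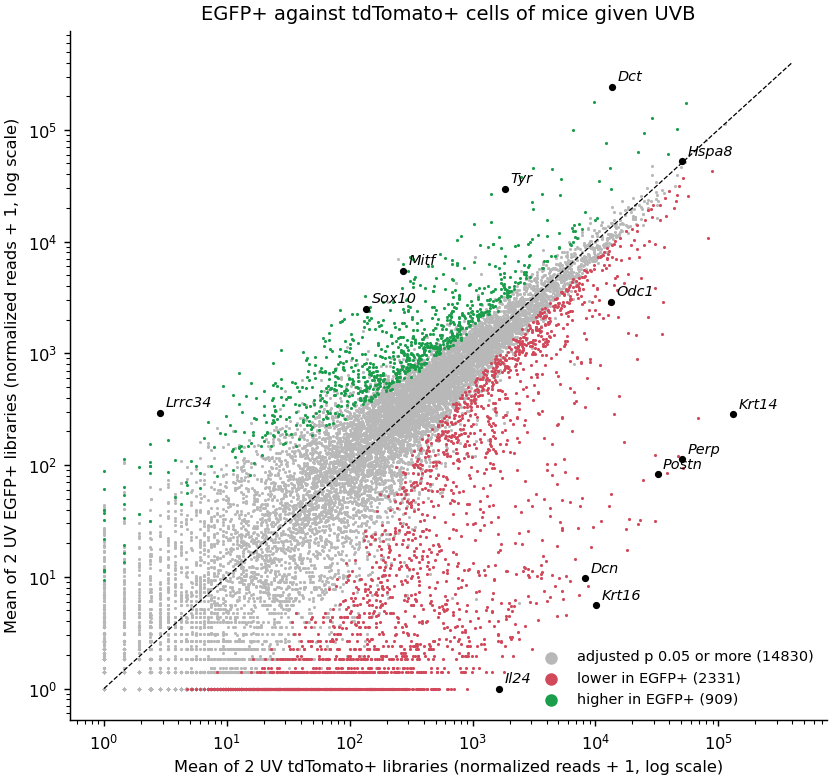
Mean normalized reads + 1 of the 2 UV tdTomato+ libraries (x axis, log scale) and of the 2 UV EGFP+ libraries (y axis, log scale), with 1 point per tested gene, green where higher and red where lower in EGFP+ cells at adjusted p under 0.05, and grey otherwise. Dct lies at the top above the dashed line of equal levels, and Krt14, Krt16 and Dcn lie far below it.

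The markers of both sides followed the labels. Dct, which turns dopachrome into a eumelanin precursor, had 238190 and 249432 normalized reads in UV EGFP replicates 1 and 2 and 10214 and 17032 in UV tdTomato replicates 1 and 2. It was higher in EGFP+ cells in both mice, without overlap, by 4.21 ± 0.35 (adjusted p = 0.000177). Kit, the receptor of stem cell factor, had 5712 and 5297 against 264 and 328, a difference of 4.22 ± 0.48 (adjusted p = 0.000807). Mitf had 3592 and 7406 against 247 and 295, and its tdTomato+ level in mice without UV overlapped with that, at 134 and 278 (difference with UV 4.25 ± 0.42, adjusted p = 0.000404). Tyr, whose product catalyses the limiting step of melanin synthesis, had 24468 and 34824 against 1169 and 2496 (4.09 ± 0.45, adjusted p = 0.000712).

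Krt16, a keratin that keratinocytes switch on in wounds, had 5.87 and 3.23 against 14171 and 5974, a difference of -10.74 ± 0.54 (adjusted p = 1.38e-05). The reads of Krt6a, Krt14, Krt16 and Krt17 can be split between closely related keratin genes, so their separate levels are uncertain. Il24, a cytokine of the IL-10 family made by stressed keratinocytes, had 0 reads in both EGFP+ libraries against 1437 and 1834, which makes it at least 1155-fold lower (3 reads over the group as the floor; adjusted p = 0.000133). Krt16 lies at chr11:100246091-100248902 on the minus strand and Il24 at chr1:130882074-130887454 on the minus strand (mm10).

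**Figure D2:**
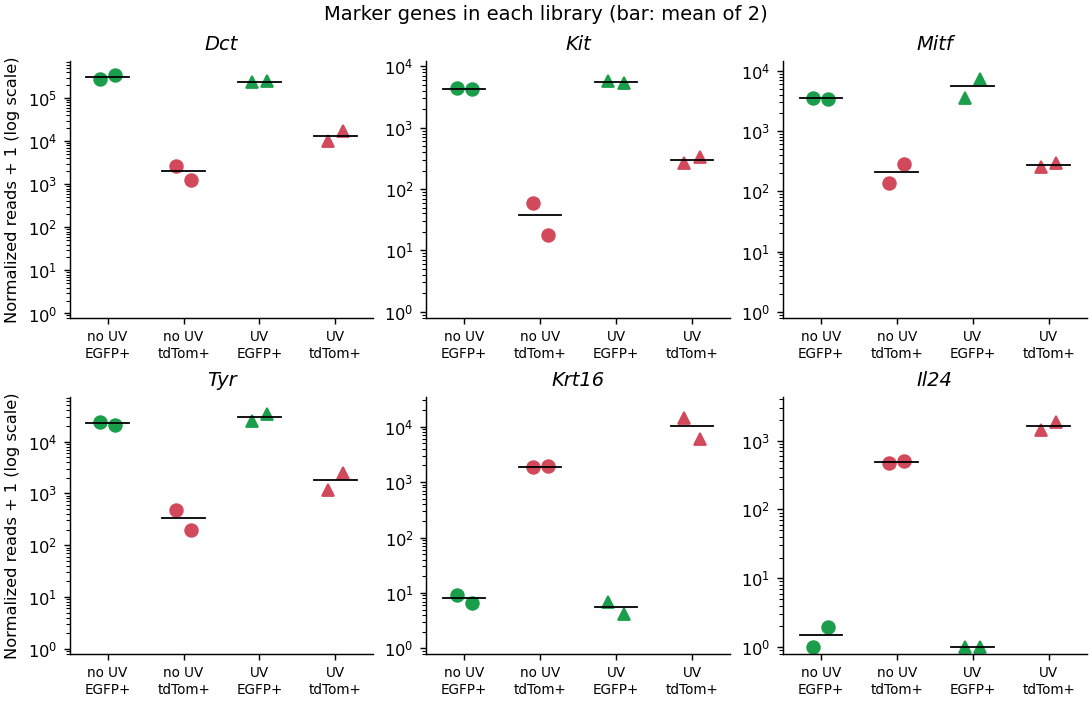
Normalized reads + 1 (log scale) of 6 marker genes in each of the 8 libraries, circles without UV and triangles with UV, green for EGFP+ and red for tdTomato+, with a bar at the mean of 2. Dct, Kit, Mitf and Tyr are high in EGFP+ libraries and Krt16 and Il24 in tdTomato+ libraries, and Dct, Kit and Tyr are higher in tdTomato+ cells of the UV mice than of the mice without UV.

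Most pigment genes were higher in EGFP+ cells. Of 26 melanin and melanosome genes, 20 were higher and 1 was lower, with a median of 3.94. Mlana, a melanosome membrane protein, had 30003 and 23733 against 1012 and 1790 (4.31 ± 0.30, adjusted p = 8.38e-05), and the transporter gene Slc45a2 had 7481 and 6449 against 189 and 468 (4.54 ± 0.39, adjusted p = 0.000198). Tyrp1, an oxidase of eumelanin synthesis, had 177752 and 175032 against 6146 and 13243 (4.29 ± 0.52, adjusted p = 0.00112, and 0.0539 without UV tdTomato replicate 1). Trpm1, a channel gene that MITF controls, had 4491 and 8165 against 168 and 372 (4.59 ± 1.09, adjusted p = 0.0224), and lost its call in 6 of 8 fits with a library left out (highest adjusted p = 0.26, without the same library). Myo5a, the motor that carries melanosomes along actin, had 4265 and 5960 against 468 and 672 (3.17 ± 0.28). The difference was smaller for Cd63, a tetraspanin of melanosomes and lysosomes found in many cell types, at 96508 and 90166 against 24348 and 25182 (1.91 ± 0.13, adjusted p = 7.51e-05). Mreg, a regulator of melanosome transfer, was the gene that went the other way, with 174 and 502 against 1236 and 941 (-1.86 ± 0.52, adjusted p = 0.0393), and it kept its call in 1 of 8 fits with a library left out. The count of higher genes was 13 without UV tdTomato replicate 1, 12 without UV tdTomato replicate 2 and 17 without UV EGFP replicate 2.

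Of 20 regulators of the melanocyte lineage, 14 were higher and 2 lower, with a median of 3.22. Ets1, a transcription factor of the neural crest, had 2645 and 3209 against 505 and 309 (2.88 ± 0.28, adjusted p = 0.000401). Bcl2, which melanocytes need for survival, had 1881 and 1827 against 220 and 333 (2.77 ± 0.33, adjusted p = 0.00107). The groups did not overlap in either gene, as in every called gene. The lower genes were Sox9, a factor of hair follicle stem cells as well as of melanocytes, with 16.8 and 162 against 2100 and 2539 (-5.42 ± 0.85, adjusted p = 0.0035), and Snai2, a factor of migrating neural crest cells, with 1095 and 481 against 2524 and 3419 (-2.02 ± 0.41, adjusted p = 0.0111). Fewer lineage genes were higher without UV EGFP replicate 2 (6), UV tdTomato replicate 1 (5), UV tdTomato replicate 2 (7) or either EGFP+ library without UV (6 each), and Sox9 and Snai2 lost their calls in 4 and 5 of those 8 fits.

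Receptors through which other skin cells signal to melanocytes were split. Of 37 tested, 5 were higher in EGFP+ cells and 13 lower, with a median of -0.58. The higher ones were Kit, Ednrb, Mc1r, Plxnc1 and Igf2r. Ednrb, the endothelin receptor of melanocytes, had 6273 and 7873 against 586 and 605 (3.56 ± 0.42, adjusted p = 0.000947). Ednra, the other endothelin receptor, had 0 reads in EGFP+ cells against 401 and 404, at least 285-fold lower (adjusted p = 0.00132). Mc1r, the melanocortin receptor that sets pigment type, had 708 and 1352 against 12.8 and 68.6 (4.98 ± 1.27, adjusted p = 0.029), and lost its call in 6 of 8 fits with a library left out (highest adjusted p = 0.294, without UV tdTomato replicate 1). Plxnc1, the receptor of semaphorin 7A, had 3315 and 2386 against 152 and 217 (3.94 ± 0.79, adjusted p = 0.0108), and lost it in 5 (highest 0.163, without the same library). Igf2r had 586 and 920 against 119 and 189 (2.28 ± 0.42, adjusted p = 0.0076, and 0.0761 without UV tdTomato replicate 1).

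Several of the lower receptors bind growth factors. Egfr had 0.839 and 2.16 against 827 and 782, a ratio of 569 in favour of tdTomato+ cells (95% interval 194 to 2760, counting error only; adjusted p = 0.000542). Fgfr2, which binds FGF7, had 12.6 and 2.16 against 892 and 886 (-7.09 ± 0.75). Fgfr1 had 171 and 158 against 870 and 947 (-2.46 ± 0.28), so it was lower but still present in EGFP+ cells. The other lower receptors included Tnfrsf1a, Il1r1, Fgfr3, Il6ra, Mertk, Csf2rb, Axl and Bmpr1a. Receptors without a call included Met, the HGF receptor, at 741 and 600 against 423 and 618 (0.38 ± 0.38, adjusted p = 0.558), and Erbb3, a neuregulin receptor, at 174 and 165 against 32.1 and 71.4 (1.80 ± 0.64, adjusted p = 0.0933; 0.0436 under quantile normalization). The 5 higher and 13 lower receptors became 3 and 11 without UV EGFP replicate 2, 2 and 5 without UV tdTomato replicate 1, and 3 and 4 without UV tdTomato replicate 2.

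The ligands lay on the tdTomato+ side. Of 31 tested, 0 were higher and 17 lower in EGFP+ cells with limma (1 higher at an unadjusted p under 0.05, and 1 with each of edgeR and DESeq2 on whole reads). The median was -4.93, or -4.59 with genes at 0 reads set to their bound. Kitl, which encodes stem cell factor, had 19.3 and 1.08 against 1142 and 1063 (-7.41 ± 0.91, adjusted p = 0.00119), the reverse of its receptor Kit, and its adjusted p was 0.055 without UV tdTomato replicate 1. Edn1 and Edn2 encode endothelins. Edn2 had 0 reads against 248 and 311, at least 197-fold lower (adjusted p = 0.000771), and Edn1 had 0.839 and 0 against 110 and 95.5, while Edn3 was near the floor (0 and 0 against 0.916 and 16.7, adjusted p = 0.273). Nrg1, a neuregulin, had 0 reads against 553 and 511, at least 376-fold lower (adjusted p = 0.000833). Its tdTomato+ level in mice without UV was 49.9 and 20. Of the other lower ligands, Sfrp1, an inhibitor of WNT signals, had 5.87 and 4.31 against 3500 and 4637 (-9.38 ± 0.44, adjusted p = 1.28e-05), Jag1, a NOTCH ligand, had 212 and 126 against 1166 and 1626 (-3.07 ± 0.34, adjusted p = 0.00073), and Bmp4 had 0 reads against 176 and 377, at least 195-fold lower (adjusted p = 0.00143). The rest of the 17 included Hbegf, Jag2, Tnf, Il6, Edn1, Fgf7, Igf2, Gas6, Wnt5a and Il1a. The list counted 12 lower genes without UV tdTomato replicate 1 and 14 to 20 without any other 1 library. The ligands with values above 0 on the log2 scale were Pomc, the precursor of melanocortins, at 35.2 and 44.2 against 5.5 and 11.1 (adjusted p = 0.244), and Tgfb2, at 136 and 508 against 59.6 and 79.7 (adjusted p = 0.0732). Tgfb2 passed under quantile normalization (adjusted p = 0.0305) and under rescaling (0.0491).

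**Figure D3:**
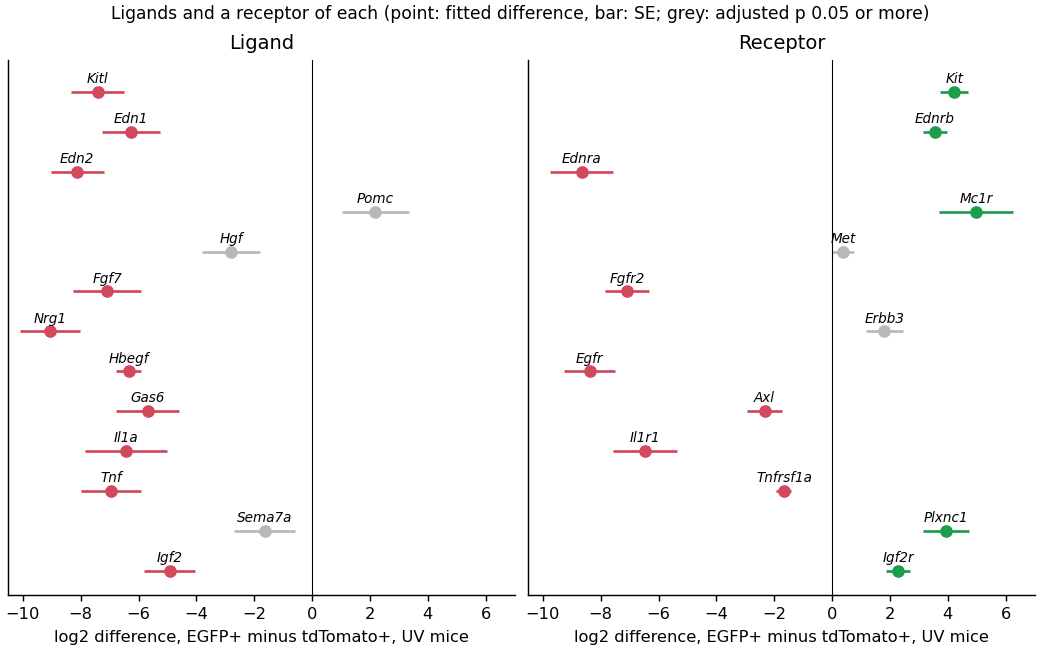
Log2 difference, EGFP+ minus tdTomato+ in UV mice (x axis), of 13 ligands (left) and a receptor of each (right), with the standard error as a bar, green where higher, red where lower and grey where adjusted p was 0.05 or more. Kitl and Edn1 lie on the left, and the receptors drawn beside them, Kit and Ednrb, lie on the right. Edn2 and the receptor drawn beside it, Ednra, both lie on the left, as do ligand and receptor for EGF and FGF signals.

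Keratinocyte genes were lower in EGFP+ cells. Of 14 basal genes, 11 were lower and 0 higher (median -7.57), of 17 suprabasal genes 11 and 0 (median -5.17), of 18 wound genes 12 and 0 (median -7.52), and of 17 hair follicle genes 15 and 0 (median -6.03, or -5.67 with genes at 0 reads set to their bound), in limma. At an unadjusted p under 0.05, and in each of edgeR and DESeq2, 1 basal gene and 0 of the others were higher. Krt14 had 227 and 341 against 136671 and 126650 (-8.88 ± 0.23, adjusted p = 1.73e-06), and Krt5, its partner in basal cells, had 84.7 and 83 against 35163 and 41936 (-8.82 ± 0.28). Krtdap, a protein of differentiating keratinocytes, had 25.2 and 37.7 against 29533 and 16988 (-9.46 ± 0.46). Cd34, a marker of bulge stem cells and also of dermal and vascular cells, had 0.839 and 5.39 against 3060 and 3804 (-9.96 ± 0.82). Lgr5, a stem cell marker of the lower follicle, had 7.55 and 4.31 against 523 and 371 (-6.03 ± 0.58). Without UV EGFP replicate 2 the counts of lower genes were 12, 8, 11 and 11 in the same order. The suprabasal count was 6 without UV tdTomato replicate 1, and the hair follicle count was 6 and 7 without UV tdTomato replicates 1 and 2. Of 10 sebocyte genes 1 was lower, Dgat2, and its call was lost in 6 of 8 fits with a library left out.

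Krt1 and Krt10, the keratin pair of the suprabasal epidermis, were low on both sides after UVB. Krt10 had 172 and 181 in EGFP+ cells against 673 and 351 in tdTomato+ cells (-1.46 ± 0.37, adjusted p = 0.0284), where the tdTomato+ cells without UV had 12359 and 18394. Krt1 had 4.2 and 3.23 against 54.1 and 16.7 with UV (adjusted p = 0.0474), and 5874 and 10598 in tdTomato+ cells without UV; it was named after its values were seen, its difference was -0.06 under quantile normalization, and its adjusted p was 0.0673 with mouse as a block. Both calls were lost in at least 7 of 8 fits with a library left out.

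Wound genes were among the largest fitted falls. Krt6a had 43.6 and 17.2 against 39195 and 22214 (-10.01 ± 0.52, adjusted p = 1.63e-05), with 1488 and 3043 in tdTomato+ cells without UV. Hbegf, a growth factor released at wounds, had 34.4 and 99.2 against 4791 and 4915 (-6.35 ± 0.45, adjusted p = 8.43e-05). Serpinb2 had 6.71 and 15.1 against 3771 and 1615 (-7.79 ± 0.53). Sprr1a and Plaur, whose upstream sequences hold AP-1 sites, had 6.71 and 14 against 4137 and 1932 and 36.1 and 1.08 against 1629 and 1792; both passed the test (adjusted p = 0.000239 and 0.00255; Plaur reached 0.0802 without UV tdTomato replicate 1) and were named after their sequences and values were seen.

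Of 29 cytokine and chemokine genes, 21 were lower and 0 higher (median -5.79) in limma, and 0 were higher at an unadjusted p under 0.05, in edgeR or in DESeq2. Cxcl14, a chemokine made constantly by the epidermis, had 268 and 390 against 8046 and 8419 (-4.67 ± 0.26, adjusted p = 2.04e-05). Cxcl1, which draws in neutrophils, had 94 and 110 against 2911 and 5187 (-5.24 ± 0.33, adjusted p = 4.48e-05). Areg, an EGF receptor ligand, had 3.36 and 2.16 against 2024 and 2413 (-9.22 ± 0.83, adjusted p = 0.000259). Cxcl16 had 8.39 and 10.8 against 2707 and 1830, and Cxcl12, a chemokine of dermal cells, had 5.87 and 2.16 against 1309 and 1280. In each of these 5 genes both EGFP+ libraries lay far under both tdTomato+ libraries. The count of lower cytokine genes ran from 15 to 23 over the 8 fits with a library left out.

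**Figure D4:**
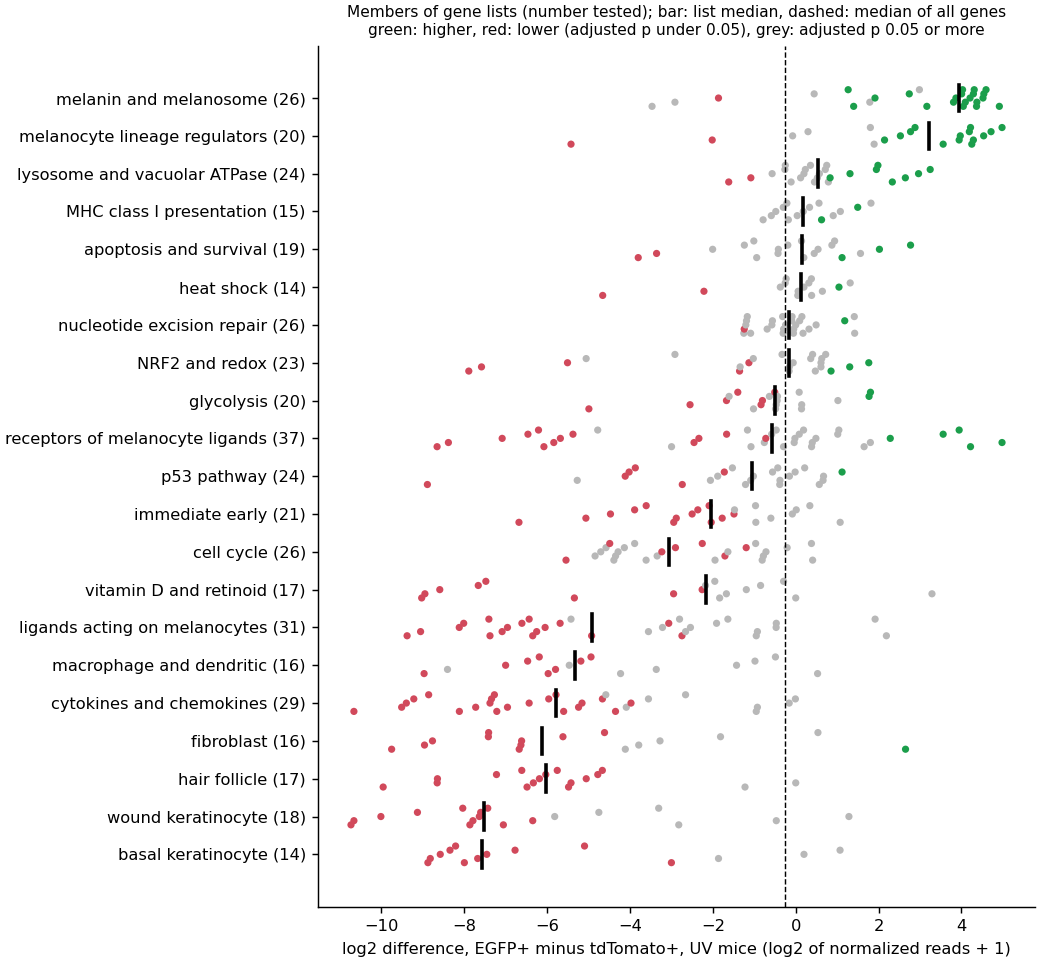
Log2 difference, EGFP+ minus tdTomato+ in UV mice (x axis), of each tested member of the gene lists (rows), green where higher, red where lower and grey where adjusted p was 0.05 or more, with a bar at the list's median and a dashed line at the median of all genes, -0.27. Melanin and lineage genes lie to the right, keratinocyte, fibroblast and cytokine genes to the left, and nucleotide excision repair genes around the dashed line.

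Of 16 fibroblast genes, 10 were lower and 1 higher (median -6.12, or -5.86 with genes at 0 reads set to their bound; 6 lower without UV tdTomato replicate 1). Dcn, the proteoglycan decorin, had 6.71 and 10.8 against 7252 and 9350 (-9.76 ± 0.48, adjusted p = 1.28e-05), and Postn, the matrix protein periostin, had 26.8 and 137 against 23315 and 40921 (-8.96 ± 0.78). Fn1, fibronectin, was the higher one, with 3389 and 1430 in EGFP+ cells against 293 and 417 (2.65 ± 0.50, adjusted p = 0.00835). Without UV it had 168 and 350 against 236 and 178, a change that limma did not call. The fibroblast list summed to 13565 and 7885 normalized reads in UV EGFP+ cells against 38206 and 58892 in UV tdTomato+ cells. Postn and Dcn made up most of the tdTomato+ sums. Fn1 was the smaller part of the EGFP+ sums, so other members of the list also had reads in EGFP+ cells. The call on Fn1 was lost in 4 of 8 fits with a library left out (highest adjusted p = 0.136, without UV tdTomato replicate 1).

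Of 12 endothelial and 10 mural genes 4 each were lower, and 8 and 6 did not pass. The mural list summed to 609.1 and 1453 normalized reads in EGFP+ cells against 1295 and 719.6 in tdTomato+ cells, and the endothelial list to 672.0 and 358.9 against 2328 and 381.1, so the sums of both lists overlapped between the groups. Pecam1, an endothelial adhesion protein, had 0 reads against 386 and 53.8, at least 156-fold lower (adjusted p = 0.00581), and Notch3, a receptor of mural cells, had 0 against 113 and 54.7 (adjusted p = 0.0516 without UV tdTomato replicate 1). The endothelial count was 1 without UV EGFP replicate 2, 4 without UV tdTomato replicate 2 and 2 without any other library, and the mural count was 1 without UV tdTomato replicate 1, 2 without UV tdTomato replicate 2 or UV EGFP replicate 2, and 3 without any other. Of 16 genes of macrophages and dendritic cells 8 were lower in EGFP+ cells (2 without UV tdTomato replicate 2, 3 without either EGFP+ library without UV, and 4 without UV tdTomato replicate 1 or UV EGFP replicate 2), of 9 neutrophil genes 3 (sums of 1080 and 634.8 against 1844 and 1227), and of 11 T and NK cell genes 2 (1 without UV EGFP replicate 2 or UV tdTomato replicate 1, and 4 without UV tdTomato replicate 2). C1qa, a complement gene of macrophages, had 0 reads against 151 and 25, and 0 in all 4 libraries without UV. Cd207, the langerin gene of Langerhans cells, named after its values were seen, had 0 and 1.08 against 0 and 0 after UVB, and 1237 and 271 in tdTomato+ cells without UV. Of 5 adipocyte and 2 erythrocyte genes tested, 0 passed in limma, with 0 at an unadjusted p under 0.05, and 1 adipocyte gene passed in each of edgeR and DESeq2.

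Of 14 genes of Schwann cells and glia, which also arise from the neural crest, 3 were higher and 3 lower (median 0.80). The list summed to 15920 and 9579 normalized reads in UV EGFP+ cells against 4072 and 3152 in UV tdTomato+ cells. Each of edgeR and DESeq2 called 6 higher and 4 lower, and quantile normalization gave 5 and 2. Foxd3, named below, is also among the lineage regulators. Mbp, a myelin protein, had 0 reads in EGFP+ cells against 262 and 117, at least 134-fold lower (adjusted p = 0.000729). Fabp7, a fatty acid binding protein of glia, had 1016 and 323 against 67.8 and 66.8 (3.07 ± 0.69, adjusted p = 0.0179), and Foxd3, a factor of early crest cells, had 148 and 228 against 11 and 6.49 (4.29 ± 1.03, adjusted p = 0.023). Fabp7 and Foxd3 lost their calls in 7 and 5 of 8 fits with a library left out. The counts higher and lower were 1 and 2 without either UV EGFP library, 0 and 2 without UV tdTomato replicate 1 or either EGFP+ library without UV, and 0 and 1 without UV tdTomato replicate 2.

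Of 24 p53 pathway genes, 6 were lower in EGFP+ cells and 1 was higher (median -1.05), where 12.9% and 5.03% of all genes tested were. The share of higher p53 genes was thus near that of all genes. Bax, which opens mitochondria in apoptosis, was the higher one, with 3758 and 4101 against 1737 and 1881 (1.12 ± 0.17, adjusted p = 0.00314), and it kept its call in all 8 fits with a library left out. Without UV, Bax had 1925 and 1882 against 1429 and 1422, a change that limma did not call. Perp, a p53 target that is also a desmosome protein of stratified epithelia, had 78 and 146 against 51726 and 50511 (-8.89 ± 0.36, adjusted p = 9.75e-06). Btg2, an antiproliferative target, had 529 and 1035 against 10188 and 11564 (-3.87 ± 0.30), and Pmaip1, which encodes NOXA, had 106 and 148 against 2032 and 2346 (-4.12 ± 0.51). Cdkn1a, the cell cycle inhibitor p21, named after its values were seen, had 5785 and 3072 against 8005 and 4824 (-0.56 ± 0.34, adjusted p = 0.314), and its libraries overlapped. The count of lower p53 genes was 11 without UV EGFP replicate 1.

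Of 26 genes of nucleotide excision repair, the pathway that removes UV photoproducts, 1 was higher and 1 lower (median -0.17). Both shares were below those of all genes tested (5.03% and 12.9%). Gtf2h1, a subunit of TFIIH, had 3017 and 2927 against 1287 and 1330 (1.18 ± 0.23, adjusted p = 0.00894), and Gtf2h3, another subunit, had 533 and 557 against 1423 and 1172 (-1.24 ± 0.26, adjusted p = 0.0135). The damage sensors Xpc, at 174 and 111 against 186 and 227 (adjusted p = 0.442), and Ddb2, at 67.1 and 35.6 against 104 and 134 (adjusted p = 0.182), did not pass. Both calls were lost in 2 of 8 fits with a library left out (highest adjusted p = 0.0921 and 0.117, without UV tdTomato replicate 1). Without UV EGFP replicate 1, 2 repair genes were higher and 6 lower.

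The count of cell cycle genes depended on single libraries. Of 26 cell cycle genes 7 were lower and 0 higher in limma (median -3.07), with 1 higher at an unadjusted p under 0.05 and 0 higher in edgeR and DESeq2. Ccnd1, the cyclin of G1 phase, had 137 and 38.8 against 1744 and 1586 (-4.49 ± 0.54, adjusted p = 0.00103, and 0.0516 without UV tdTomato replicate 1). Mki67, a marker of dividing cells, had 257 and 48.5 against 659 and 1081 (-2.90 ± 0.79, adjusted p = 0.0366), and lost its call in 7 of 8 fits with a library left out (highest adjusted p = 0.275, without UV tdTomato replicate 2). UV EGFP replicate 2 was the lower of the pair in both. With mouse as a block 11 were lower. The count was 18 without UV EGFP replicate 1, 3 without UV EGFP replicate 2, 2 without UV tdTomato replicate 2, 0 without UV tdTomato replicate 1, and 3 without any 1 of the libraries without UV.

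Of 21 immediate early genes, 13 were lower and 0 higher (median -2.04) in limma, with 1 higher at an unadjusted p under 0.05 and in each of edgeR and DESeq2. Dusp1, a phosphatase that ends MAP kinase signals, had 1531 and 1371 against 22630 and 20387 (-3.89 ± 0.17, adjusted p = 1.26e-05). Zfp36, which shortens the life of cytokine mRNAs, had 1795 and 1271 against 17934 and 18992 (-3.61 ± 0.20, adjusted p = 2.04e-05). The list as a whole summed to 53976 normalized reads in UV EGFP replicate 1 and 127739 in replicate 2, against 187265 and 194380 in the tdTomato+ libraries. Fos itself, named after its values were seen, had 7341 and 34953 against 27392 and 35614 (adjusted p = 0.314). The count was 5 and 6 without UV tdTomato replicates 1 and 2, 16 without UV EGFP replicate 2, and 7 without any 1 of the libraries without UV.

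Of 23 NRF2 and redox genes, 3 were higher and 5 lower, where 5.03% and 12.9% of all genes tested were. Gstm1, a glutathione transferase, had 11525 and 8412 against 2682 and 3134 (1.76 ± 0.20, adjusted p = 0.00076). Without UV it had 7891 and 9820 against 8831 and 8948, a change that limma did not call. Gpx2, a glutathione peroxidase of epithelia, had 13.4 and 46.3 against 6104 and 4126 (-7.59 ± 0.65, adjusted p = 0.000198). Of 14 heat shock genes, 1 was higher and 2 lower, shares near those of all genes (5.03% and 12.9%). Hspb1, a small heat shock protein abundant in keratinocytes, had 2096 and 899 against 34892 and 34556 (-4.66 ± 0.34, adjusted p = 0.000103). Hspa8, a constitutive chaperone, stood at 47038 and 57924 against 47613 and 53443 (0.05 ± 0.19, adjusted p = 0.939). Redox genes numbered 1 higher and 3 lower without UV tdTomato replicate 1 and 1 and 2 without replicate 2, and 0 heat shock genes were higher without either. Under quantile normalization and rescaling, 6 and 7 redox genes and 3 and 3 heat shock genes were higher.

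Of 15 genes of MHC class I presentation 2 were higher, where 5.03% of all genes tested were. B2m, the light chain of class I molecules, had 55289 and 70883 against 21880 and 22504 (1.50 ± 0.22, adjusted p = 0.00244). It had 55817 and 35708 against 49825 and 43334 without UV, a change that limma did not call. Its call was lost in 2 of 8 fits with a library left out (highest adjusted p = 0.074, without UV tdTomato replicate 1). Of 24 interferon response genes 3 were higher and 4 lower, the latter a share near that of all genes tested (12.9%). Counts were 6 higher and 4 lower in edgeR, and 7 and 4 in DESeq2. Bst2, an antiviral membrane protein, had 2264 and 2960 against 492 and 479 (2.41 ± 0.32, adjusted p = 0.00176, and 0.0504 without UV tdTomato replicate 1), and Irf1, a transcription factor of the interferon response, had 796 and 1172 against 4516 and 4958 (-2.29 ± 0.27, adjusted p = 0.000975). Without UV tdTomato replicates 1 and 2, 0 class I genes were higher, and 0 and 1 interferon genes were higher and 2 lower. Without UV EGFP replicate 1, 4 class I genes were higher and 1 lower.

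Lysosome genes leaned to the EGFP+ side, with 8 of 24 higher and 2 lower (median 0.55; 5 higher without UV tdTomato replicate 1). Sqstm1, the autophagy receptor p62, had 24147 and 27980 against 5205 and 5121 (2.33 ± 0.18, adjusted p = 0.000135). Atp6v1b2 and Atp6v0a1, subunits of the proton pump of lysosomes and melanosomes, had 16590 and 14578 against 4433 and 3668 (1.95 ± 0.17) and 3432 and 3855 against 376 and 576 (2.96 ± 0.28). Of 25 adhesion genes 4 were higher and 11 lower (1 and 10 without UV tdTomato replicate 1, 2 and 10 without replicate 2). Dsp, the desmosome protein desmoplakin, had 33.6 and 26.9 against 11611 and 10562 (-8.48 ± 0.33), and Cldn1, a tight junction protein, had 5.87 and 5.39 against 4590 and 3913 (-9.32 ± 0.46). The neural adhesion gene Ncam1 had 468 and 445 against 45.8 and 68.6 (3.00 ± 0.45, adjusted p = 0.0029). Of 17 vitamin D and retinoid genes 8 were lower (5 without either UV tdTomato library), among them Vdr, the vitamin D receptor, with 5.87 and 1.08 against 2002 and 1946 (-9.03 ± 0.76, adjusted p = 0.000189).

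The largest fitted rises that the naming rule selected, at a pseudocount of 1, were of genes with low levels in EGFP+ cells. Lrrc34, a leucine-rich repeat gene, had 183 and 404 against 0.916 and 2.78 (6.66 ± 1.14, adjusted p = 0.00541). Smtnl1, a smoothelin-like gene of muscle, had 72.1 and 103 against 0 and 0, at least 62.1-fold higher (adjusted p = 0.00378). Tmod1, which caps actin filaments, had 377 and 651 against 13.7 and 2.78 (6.05 ± 0.93, adjusted p = 0.00318), and Cdh6, a cadherin of neural crest cells, had 65.4 and 55 against 0 and 0, at least 44-fold higher (adjusted p = 0.00467). The other 6 were Ccdc114, Mylk3, Xrra1, Trim63, Tgtp1 and Iffo1, of which Tgtp1 has a near-identical neighbour and an uncertain level, and each lost its call in 1 to 7 of the 8 fits with a library left out. Lrrc34 lost its call without UV tdTomato replicate 1 (adjusted p = 0.0723), and Smtnl1, Tmod1 and Cdh6 kept theirs in all 8 fits with a library left out. Genes at 0 reads have no rank here, since their fitted size depends on the pseudocount: with 0.1, Smtnl1 came to 9.76 and Lrrc34 to 7.31, and Il24 to -13.99 and Krt16 to -11.01. Beside Krt16, Il24 and Krt6a the largest fitted falls were Igfbp7, Dsc3, Fam167a, Them5 (adjusted p = 0.0587 without UV tdTomato replicate 1), Lypd3, Epgn and Aqp3. Aqp3, the water and glycerol channel of the epidermis, had 12.6 and 20.5 against 20850 and 15116 (-10.02 ± 0.35, adjusted p = 5.06e-06), and Epgn, an EGF receptor ligand, had 5.87 and 8.62 against 8086 and 9369 (-10.06 ± 0.56, adjusted p = 2.07e-05).

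Whether the gap between the cell populations was different in mice given UVB was tested as the difference between both contrasts, which share no library. Limma called 1 of 18070 genes (0.00553%), with 1814 at an unadjusted p under 0.05, and edgeR and DESeq2 on whole reads called 75 and 291. No gene described above with its levels without UV was called by limma here. The called gene was Odc1, ornithine decarboxylase, the first enzyme of polyamine synthesis, at chr12:17544794-17551505 on the plus strand (mm10). With UV it had 3498 and 2268 in EGFP+ cells against 13996 and 12662 in tdTomato+ cells, and without UV 6386 and 6795 against 3238 and 3143. It thus lay lower in EGFP+ cells of both UV mice and higher in those of both mice without UV, a change of -3.29 ± 0.30 in the log2 difference (adjusted p = 0.0496). The count was 0 with a pseudocount of 0.1 or with no filter, and ran from 0 to 779 over the 8 fits with a library left out. It was 762 without UV EGFP replicate 1, 779 and 290 without no UV tdTomato replicates 1 and 2, and 0 without any 1 of the other 5 libraries.

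The 9 genes next in order of p did not pass. Ctsl, a lysosomal protease, had 4645 and 4796 against 13012 and 16130 with UV and 6490 and 7051 against 4616 and 4507 without (change -2.19 ± 0.22, adjusted p = 0.0598). Krt10 was described above (change 4.78 ± 0.52, adjusted p = 0.0706). Serpine2, an inhibitor of extracellular proteases, had 1550 and 1457 against 7650 and 8440 with UV and 1551 and 1776 against 359 and 113 without (change -5.46 ± 0.63, adjusted p = 0.0788), so its EGFP+ levels were alike in all 4 mice and its tdTomato+ levels were not. Crabp2, which binds retinoic acid, had 6.71 and 3.23 against 3687 and 2169 with UV and 693 and 248 against 2360 and 2405 without (change -6.43 ± 0.76, adjusted p = 0.0788). For Ednrb the EGFP+ levels overlapped between UV and no UV mice, and the tdTomato+ level was 586 and 605 with UV against 40.1 and 17.1 without (change -4.53 ± 0.59, adjusted p = 0.117). The others were Arpc1b, Ptn, Wdr1 and Hcfc1r1, with adjusted p of 0.117, 0.124, 0.131 and 0.147.

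**Figure D5:**
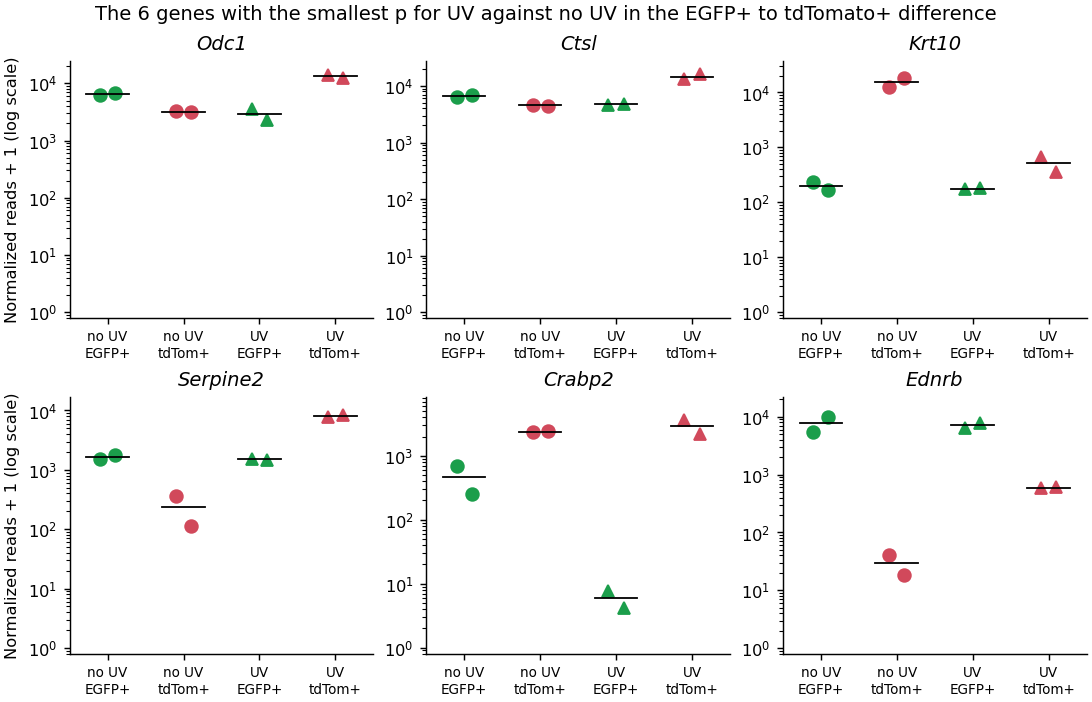
Normalized reads + 1 (log scale) in each of the 8 libraries of the 6 genes with the smallest p for the change in the EGFP+ to tdTomato+ difference with UV, circles without UV and triangles with UV, green for EGFP+ and red for tdTomato+, with a bar at the mean of 2. Odc1, the 1 gene called, has its green points above the red without UV and below them with UV.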

How the data were processed

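RNA was sequenced from cells sorted from dissociated back skin (TruSeq RNA v2, oligo dT, 1 µg of total RNA, per the labels' protocols), a kit that does not mark strand, so overlapping and antisense genes cannot be separated. The submitters' processing notes name build mm10 and the tools DESeq2 1.14.1, Cufflinks 2.2.1, TopHat2 2.0.12 and FastQC; which tool counted the reads is not given in the sources used here. In the deposited signal, the reads of each gene stand divided by the library's size factor, and all 195368 values (100%) came out as whole reads within 0.01. The authors' deposited log2 fold changes, test scores and p-values compare EGFP+ with tdTomato+ cells over all 8 libraries and were not used. Of 24421 genes, 3897 were 0 everywhere and 27 symbols had been turned into dates.

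The main test was limma 3.58.1 (R 4.3.3) on log2(value + 1) with a trend in the variance, over all 8 libraries with 1 mean per group (4 residual degrees of freedom, median 8.4 after moderation), for 18070 genes with a group mean of at least 1, with Benjamini-Hochberg adjustment and a threshold of 0.05. edgeR 4.0.16 and DESeq2 1.42.0 on the recovered reads, other scalings, filters and pseudocounts, mouse as a block, and each library left out were alternatives, and fits were tested on simulated data. EGFP+ and tdTomato+ cells with 1 mouse number in the labels come from the same mouse; their deviations from the group means correlated at 0.0589 with UV and 0.0894 without. A gene at 0 reads in a group is given as a bound at 3 reads over the group, and 95% exact intervals cover counting error only. The 37 gene lists (631 genes, 609 tested) and the members were chosen with earlier results of these data known. Named genes were 6 markers, up to 6 genes of smallest p per list, called genes against their list's direction, ligands and receptors, members without a call in lists with 3 or fewer called, the 10 largest rises and falls among called genes without overlap, with a mean of at least 50 and a symbol that is no predicted gene or date, and the 10 genes of smallest p for the change with UV. Tyrp1 and Trpm1 fell outside this rule and were named with their upstream sequences. Other names are said to have been chosen later. Counts per list under each alternative were added after the data were seen. Positions come from GENCODE M21 and promoters from RefSeq. Some list members are not reported here.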

Additional observations from a re-analysis of the deposited data

Results flagged for a closer look

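Odc1, ornithine decarboxylase, was singled out because its EGFP+ to tdTomato+ difference was not the same with and without UV by a test of that change itself. The log2 difference was -2.24 ± 0.21 with UV and 1.05 ± 0.21 without, a change of -3.29 ± 0.30 (limma, adjusted p = 0.0496), and every EGFP+ library lay below both tdTomato+ libraries with UV and above both without. The change missed the threshold with a pseudocount of 0.1 (adjusted p = 0.0791) and with no filter on low values (0.0671). It passed in 2 of 8 fits with a library left out, those without UV EGFP replicate 1 and without no UV tdTomato replicate 1. The sex of the mice was not even between the UV groups, and its part in this change was not tested.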

How the results depend on the processing

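The count of genes that differed with UV was 3240 with 8 libraries and 1074 with the 4 UV libraries alone. With mouse as a replicate block it was 3190 with 8 libraries, of which 2886 were among the 3240, and 0 with the 4 UV libraries (3935 at an unadjusted p under 0.05). Leaving out 1 library gave 958 to 4737. The other settings gave 2843 (pseudocount 0.1), 2890 (quantile normalization), 3000 (no filter), 3109 (edgeR), 3296 (rescaling), 3523 (stricter filter) and 4043 (DESeq2). The count of genes whose difference changed with UV was 1, and became 4 with quantile normalization, 2 with rescaling, 0 with a pseudocount of 0.1 (1853 at an unadjusted p under 0.05), 0 with no filter (1915), 75 with edgeR, 291 with DESeq2, and 0 to 779 with 1 library left out. It was 1 with the block. The causes were not tested. Of 2608 values of single named genes over these settings, 2144 stayed on their side of the threshold, 415 lost it, 49 gained it, and 0 called values changed sign. With 1 library left out, the lone sample of its group is taken to vary like the other groups. Groups of 2 mice limit every comparison: exact permutation of 2 against 2 cannot give a p under 0.333, and low genes of UV EGFP replicate 2, which had the fewest detected genes, rest on few reads.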

Other observations

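Of 20 glycolysis genes, 2 were higher and 7 lower in EGFP+ cells after UVB (median -0.50), and the counts were 3 and 3 under quantile normalization, 2 and 4 under rescaling, and 1 and 0 without UV tdTomato replicate 1. The heart-type lactate dehydrogenase gene Ldhb had 7473 and 5252 normalized reads against 2070 and 1553 (1.80 ± 0.26, limma adjusted p = 0.00224, and 0.0554 without UV tdTomato replicate 2), while the muscle-type gene Ldha had 18191 and 14961 against 33674 and 24629 (-0.80 ± 0.19, adjusted p = 0.0205, and 0.153 under quantile normalization). Slc2a1, the glucose carrier GLUT1, had 231 and 641 against 2252 and 2268 (-2.55 ± 0.45, adjusted p = 0.00606), and lost its call in 4 of 8 fits with a library left out. Of 20 genes on the respiratory chain list 1 was higher and 3 lower (median -0.10, and 0 lower under quantile normalization), shares near those of all genes tested (5.03% and 12.9%). The list also holds a coactivator, which is not a subunit of the chain. The higher one was Ppargc1a, the coactivator PGC-1α, with 215 and 710 against 42.1 and 32.5 (3.37 ± 0.70, adjusted p = 0.013, and 0.0971 without UV tdTomato replicate 2).

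Of 19 genes of apoptosis and survival 3 were higher, Bcl2, Bax and Bcl2l1, and 2 lower (median 0.14). Over all genes tested 5.03% were higher and 12.9% lower, the background for each list here. Bcl2l1, which encodes the survival protein BCL-XL, had 404 and 884 against 171 and 125 (2.02 ± 0.47, adjusted p = 0.0208), and lost its call in 7 of 8 fits with a library left out. Birc5, which encodes survivin and is also a gene of cell division, had 635 and 85.1 against 2262 and 2549 (-3.36 ± 0.94, adjusted p = 0.0407), and lost its call in 7 of these fits. Of 6 metallothionein genes 2 were lower, among them Mt2, which binds zinc and copper, with 6343 and 10641 against 17702 and 26178 (-1.39 ± 0.28, adjusted p = 0.0106), and it lost its call in 6 of these fits. Cma1, a mast cell chymase, was the 1 lower gene of 3 mast cell genes, at 0.839 and 0 against 38.5 and 31.5 (adjusted p = 0.00469, but 0.122 with edgeR and 0.124 with DESeq2). Of 7 skeletal muscle genes 1 was lower, and 0 were with mouse as a block, in edgeR, in DESeq2 and in 6 of 8 fits with a library left out. Of 14 genes often used as controls 2 were higher and 1 lower, and 0 passed in either direction without UV tdTomato replicate 1 or without UV tdTomato replicate 2.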
